A study of Mus musculus with 4 samples.

Results

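The comparison described here sets the Ccrl2 library against the CD74 library, 2 of the 4 microarray libraries of the series, over 19505 genes. Both libraries were chosen by their sample titles, and the value compared for each gene was its level in Ccrl2 minus its level in CD74. Each library was 1 population of cardiac macrophages, as labelled, sorted from 6 mixed hearts of wild-type C57BL/6N mice aged 15 to 16 weeks after transverse aortic constriction (TAC), an operation that narrows the aorta and raises pressure in the left ventricle. Total RNA was hybridised to 1 Clariom S mouse array per population. The design text calls the source animals Ctrl-TAC mice, so that all libraries share the surgery, and no library from unoperated hearts was analysed here. The source names place sampling 8 weeks after TAC and the growth protocol 1 week after TAC. For the CD74 title the source name gives CD9 instead, and the growth protocol names Lyve1 where a title has CD163. Titles are used throughout. With 1 array of pooled hearts on each side, no difference has a replicate check, a standard error or a test, and precision is limited by the number of arrays.

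Macrophages are tissue phagocytes that depend on the growth factor receptor Csf1r, engulf dead cells, degrade cargo in lysosomes, present antigen and release cytokines and chemokines. T cells recognise antigen through a receptor complex built on the CD3 chains, and natural killer (NK) cells and cytotoxic T cells kill targets with perforin and granzymes. After pressure overload, resident macrophages, recruited monocytes and lymphocytes are all found in the heart. In a bulk library, fewer cells of a type and less RNA per cell cannot be told apart.

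Levels are the deposited log2 values, where 1 unit is a 2-fold difference. Each library got a background ceiling, set at the 95th percentile over 1500 background genes, namely olfactory, vomeronasal and taste receptors and keratin-associated proteins. It was 5.67 in Ccrl2 and 6.53 in CD74, and 7454 genes lay above it in Ccrl2 against 3621 in CD74. The top of the scale was 19.93, reached within 0.015 by 24 genes in Ccrl2 and 9 in CD74, and for the 9 genes at the top in both libraries no difference can be read. The CD74 array therefore measured fewer genes over a higher background than the Ccrl2 array. A gene was called higher or lower in Ccrl2 when its brighter value passed the ceiling and exceeded by at least 1 log2 unit the dimmer value or the dimmer library's ceiling, whichever was larger. Where the dimmer value lay under its ceiling, or the brighter value was at the top of the scale, the difference is a lower bound and is written as "at least". Some bright genes had the same value under 19.93 in different libraries. Hmox1 had 19.58 in Ccrl2 and CD163, and Hspa1b 18.94 and Ccl4 18.46 in Ccrl2 and Trem2. Whether such values are limits of single probe sets was not tested, so these differences may be lower bounds too.

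Of 7902 genes above the ceiling in at least 1 of the 2 libraries, 2529 were at least 2-fold higher in Ccrl2 (32.0%), 616 were at least 2-fold lower (7.8%) and 4757 were neither. The large differences ran mostly upward. At least 4-fold higher were 1221 genes and at least 4-fold lower 102, at least 16-fold higher 274 and lower 12, and at least 64-fold higher 89 and lower 2. The 6 genes at least 1024-fold higher were Tnf, Hmox1, Cxcl10, Hspa1b, Mrc1 and Csf1r, and no gene was that far lower. In CD74, 1109 of the 2529 higher genes lay under the ceiling. In Ccrl2, 345 of the 616 lower genes did. Above the ceiling in 1 library alone were 4281 genes in Ccrl2 and 448 in CD74. By the rule such a gene could be called only toward that library or not at all. For lists measured mostly in 1 library, the lack of calls the other way and the sign of the median were therefore largely fixed in advance.

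The split between directions depended on the scaling. On the deposited values 80.4% of the calls were higher in Ccrl2. After quantile normalization of the 4 columns, which gives them a common distribution, 1143 genes were higher (14.5%) and 1417 lower (17.9%), so that 44.6% of the calls were higher. The median difference over the 3173 genes measured in both libraries was 0.78 on the deposited values and -0.36 after quantile normalization. Bright genes moved by about 2 units between the scalings: Cox7c, a subunit of cytochrome oxidase, went from 2.03 to -0.05, and the chemokine receptor gene Cxcr4 from 0.10 to -2.09. Differences up to about 2 units in favour of Ccrl2 can therefore turn or vanish with the scaling, and genes described as alike are alike on the deposited values only. All 616 lower calls were kept after quantile normalization.

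By the call rule, only the lower calls could lie within the range of background genes. Of the 1500 background genes, 0 were called higher and 54 were called lower (3.6%), against 616 of all 19505 genes (3.16%). The highest background gene had 7.14 in Ccrl2 and 8.07 in CD74. All 2529 higher genes had a Ccrl2 value above 7.14, whereas 166 of the 616 lower genes had a CD74 value above 8.07. The rule fixed the 2529 and the 0 in advance. A higher call needs a Ccrl2 value at least 1 unit above the CD74 ceiling of 6.53, past every background gene. A lower call needs a CD74 value above 6.53 and at least 1 unit above the Ccrl2 ceiling of 5.67, which background genes can reach. The contrast therefore does not show that higher calls are more certain. A lower call with a CD74 value under 8.07 lies within the range of background genes, and the number above 8.07 is given for the T cell, cytotoxic, and naive and memory lists.

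**Figure D1:**
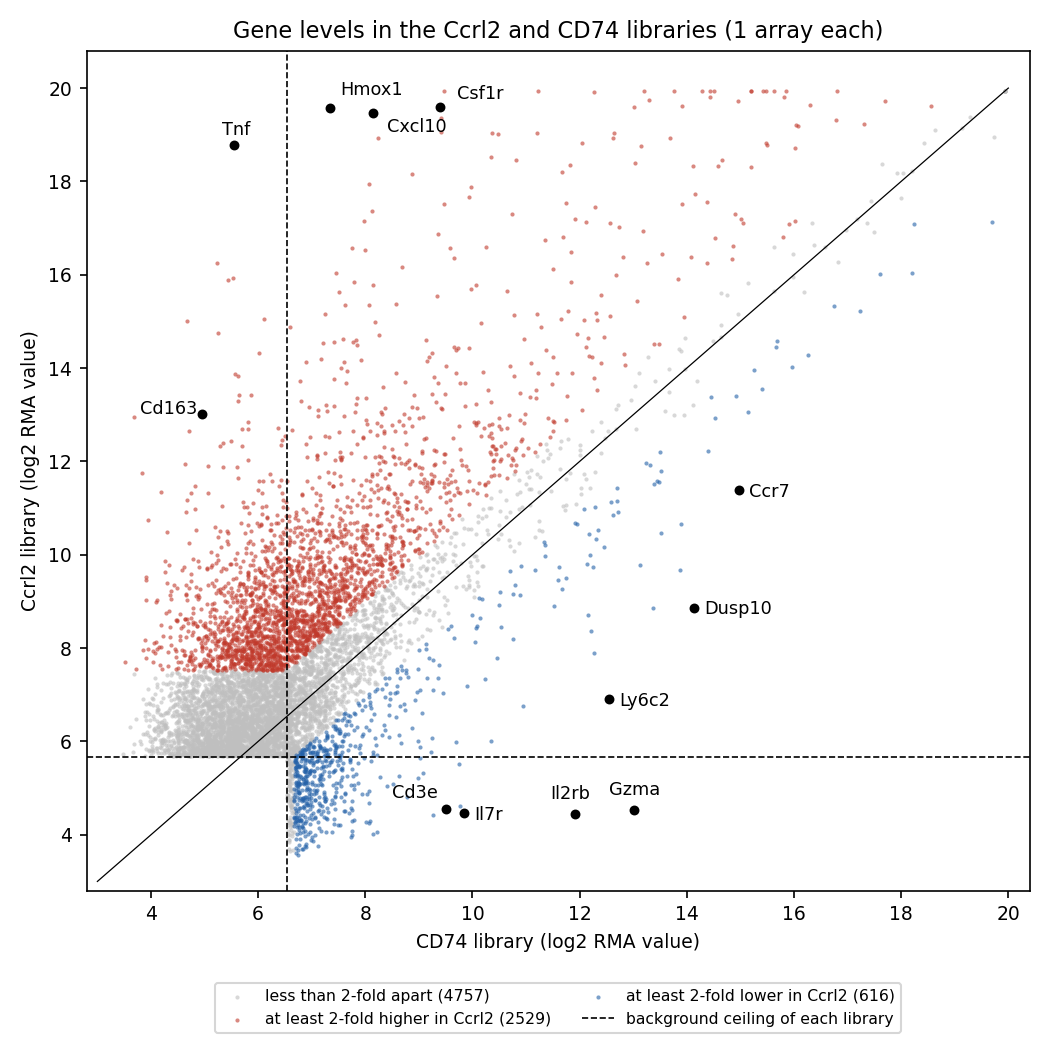
Level of each of the 7902 measured genes in the CD74 library (x axis, log2 RMA value) and the Ccrl2 library (y axis, log2 RMA value), 1 array each; dashed lines mark the background ceilings of 6.53 and 5.67 and the solid line equal levels. The 2529 genes called higher in Ccrl2 reach 19.93 and spread far above the line, while the 616 called lower lie mostly in a block just right of the CD74 ceiling, with Gzma, Il2rb, Ly6c2 and Dusp10 standing clear of it.

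The 4 marker genes of the comparison were all among its 15 largest called differences in their direction. The comparison was chosen with earlier results of these data known, so their distance describes it and is no support for it. Hmox1, which encodes the haem-degrading enzyme haem oxygenase 1, had 19.58 in Ccrl2 and 7.34 in CD74, beside 19.58 in CD163 and 17.96 in Trem2. Cxcl10, a chemokine that attracts T and NK cells through the receptor Cxcr3, had 19.46 in Ccrl2 and 8.14 in CD74, with 16.06 in CD163 and 18.03 in Trem2. Both were low in the CD74 library alone. Gzma, which encodes granzyme A, had 4.54 in Ccrl2, under the ceiling, and 13.01 in CD74, with 6.42 in CD163 and 9.71 in Trem2. Il7r, the interleukin 7 receptor of T cells and innate lymphoid cells, had 4.46 in Ccrl2 and 9.84 in CD74, with 5.15 in CD163 and 5.56 in Trem2. Gzma and Il7r were highest in CD74, and in Ccrl2 neither was above background.

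The promoters of Cxcl10 and Gzma are shown because these genes are among the largest differences in opposite directions. They are the 250 bases before the start site in the RefSeq promoter table of build GRCm38.p6, both on the minus strand, with capitals for letters that match a searched motif on either strand. The Cxcl10 sequence lies at chr5:92348890-92349139 and that of Gzma at chr13:113100982-113101231.
Cxcl10: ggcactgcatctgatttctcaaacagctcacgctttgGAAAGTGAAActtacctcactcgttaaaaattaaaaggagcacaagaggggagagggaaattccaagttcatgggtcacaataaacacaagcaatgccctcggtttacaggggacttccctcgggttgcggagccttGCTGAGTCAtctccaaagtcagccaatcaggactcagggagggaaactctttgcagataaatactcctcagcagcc
Gzma: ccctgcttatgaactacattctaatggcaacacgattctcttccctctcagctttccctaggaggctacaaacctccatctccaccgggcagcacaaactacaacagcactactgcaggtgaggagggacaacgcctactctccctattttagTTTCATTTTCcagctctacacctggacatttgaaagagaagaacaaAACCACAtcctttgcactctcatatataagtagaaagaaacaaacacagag

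In Cxcl10 the first stretch of capitals, 213 to 204 bases before the start site, matches the interferon-stimulated response element (ISRE). The other stretch, 76 to 68 bases before it, matches the antioxidant response element searched as TGACNNNGC and, within it, the AP-1 motif TGANTCA. In Gzma the first stretch, 97 to 88 bases before the start site, also matches the ISRE, on the opposite strand. The other, 51 to 45 bases before it, matches the RUNX motif TGTGGTT on the opposite strand. The interferon element letters were found in 3.18% of 2106 promoters of genes called higher, 3.5% of 486 promoters of genes called lower and 3.04% of all 27025 promoters. The RUNX letters were found in 2.37%, 5.35% and 4.46% in the same order, the AP-1 letters in 4.89%, 5.14% and 6.87%, and the antioxidant element letters in 13%, 11.5% and 10.1%. The PU.1 letters GAGGAAGT were found in 3.23%, 2.47% and 2.44%, and the T-box letters AGGTGTGA in 0.57%, 1.85% and 1.14%. These shares describe letters in a window, not binding, and 1 promoter was taken per gene. The promoter of Il7r held none of the 6 motifs.

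The sort markers separated the libraries only in part. Ccrl2, an atypical chemokine receptor that binds chemerin, had 16.58 in its own library and 9.58 in CD74, but 16.59 in Trem2. Cd9, the tetraspanin named in the source of the CD74 library, had 8.69 there against 10.79 in Ccrl2. Trem2, a lipid-sensing receptor, had 7.17 in Ccrl2 and lay under the ceiling in CD74 at 5.94, a difference too small to call. It was low in the library of its own title too, at 7.20, and the highest background gene in Ccrl2 had 7.14.

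Genes of the macrophage lineage were higher in Ccrl2 almost throughout. Of 24 core macrophage genes listed, 21 had a probe set, all 21 lay above the ceiling in Ccrl2 and 14 in CD74. At least 2-fold higher were 20 and lower 0, with a median difference of 3.66 log2 units against 0.26 over all 7902 measured genes. Csf1r, through which macrophages receive their growth factor, had 19.59 in Ccrl2 and 9.40 in CD74. The complement genes C1qa, C1qb and C1qc, whose products form the recognition molecule C1q, had 17.15, 17.37 and 15.85 in Ccrl2 against 7.97, 8.12 and 7.79 in CD74. In CD163 and Trem2 all 3 lay at 15.01 or above, so that CD74 stood apart. Spi1, which encodes the myeloid factor PU.1, had the smallest deposited difference among the core genes measured in both libraries, at 19.72 against 17.70. CD163 and Trem2 also had exactly 19.72. Whether its probe set had reached a limit was not tested, so the difference may be a lower bound. Macrophage transcripts were measured in CD74 too. Csf1r, the C1q genes, Adgre1 (9.66, the macrophage marker F4/80) and Itgam (8.62, an integrin chain of myeloid cells) were all above the CD74 ceiling, as was Spi1. C1qa and C1qc nonetheless lay within the range of background genes in CD74, which reached 8.07, and C1qb lay just over it.

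Genes of resident cardiac macrophages were mostly under the ceiling in CD74. Of 18 listed, all with a probe set, 14 were measured, all 14 in Ccrl2 and 4 in CD74. Higher in Ccrl2 were 13 and lower 0, with a median of 4.36. Members under the CD74 ceiling could not be called lower. Without a filter on low values the median over all 18 was 3.82, values limited by background included. Mrc1, the mannose receptor, was at the top of the scale in Ccrl2, CD163 and Trem2 and had 9.46 in CD74, a difference of at least 10.47. Lyve1, a hyaluronan receptor, had 13.88 in Ccrl2 and 5.56 in CD74, and Cd163, the scavenger receptor for haemoglobin complexes, 13.01 and 4.96. The growth factor gene Igf1 was at least 156-fold higher in Ccrl2 (13.82 against 5.62). F13a1, a coagulation factor chain, passed the ceiling in CD74, at 7.51 against 15.64, but within the range of background genes. Of 13 lipid-associated macrophage genes with a probe set, 12 were measured, 8 were higher and 0 lower (median 1.88), among them Abca1, a cholesterol exporter, at 12.98 against 7.12. Apoe, an apolipoprotein, was at the top of the scale in Ccrl2 and had 16.80 in CD74.

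Genes for uptake and degradation followed the same direction. Of 19 lysosomal genes with a probe set, 18 were measured, 17 were higher and 0 lower, with a median of 4.18. The protease genes Ctsb and Ctsc were at the top of the scale in Ccrl2, against 11.22 and 13.20 in CD74. Grn, which encodes progranulin, had 16.52 and 8.00, Lamp1, a lysosomal membrane protein, 15.77 and 10.07, and Lgmn, the lysosomal protease legumain, 19.06 and 9.41. Of 18 efferocytosis genes, which serve the clearance of dying cells, 17 were measured, 13 were higher and 0 lower (median 2.79). Axl, a receptor that binds dying cells through Gas6, had 13.29 in Ccrl2 and 5.62, under the ceiling, in CD74, at least 108-fold apart. Rac1, a small GTPase of the engulfment machinery, had 18.33 and 14.58.

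Haem and antioxidant genes were less uniform than Hmox1. Of 19, 16 were measured, 8 were higher and 0 lower, with a median of 1.13. Ftl1, a ferritin light chain, had 15.70 in Ccrl2 and 9.97 in CD74, and Prdx1, a peroxiredoxin, 12.61 and 8.35. The iron exporter gene Slc40a1 (6.56 and 6.61) and the transferrin receptor gene Tfrc (6.20 and 6.75) were less than 2-fold apart. Fth1, the ferritin heavy chain, was at the top of the scale in both libraries.

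Receptors that sense microbes, immune complexes and complement were also higher in Ccrl2. Of 27 pattern and Fc receptor genes with a probe set, 24 were measured, 19 were higher and 0 lower (median 2.15). Tlr7, a sensor of single-stranded RNA, had 18.15 in Ccrl2 and 8.87 in CD74. Tlr2, which senses bacterial lipoproteins, had 14.56 and 7.77, and Fcgr3, a receptor for IgG, 19.01 and 10.47. The lectin genes Clec4d (8.00 and 7.86) and Clec4e (8.62 and 8.60) and the adaptor gene Myd88 (8.24 and 7.82) were at nearly the same level in both. Among 15 complement genes with a probe set, 12 were measured, 9 were higher and 1 lower. C3ar1, the C3a receptor, had 15.92 and 5.54, and the lower gene was Cd55, a complement inhibitor on the cell surface, with 8.65 and 10.14.

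**Figure D2:**
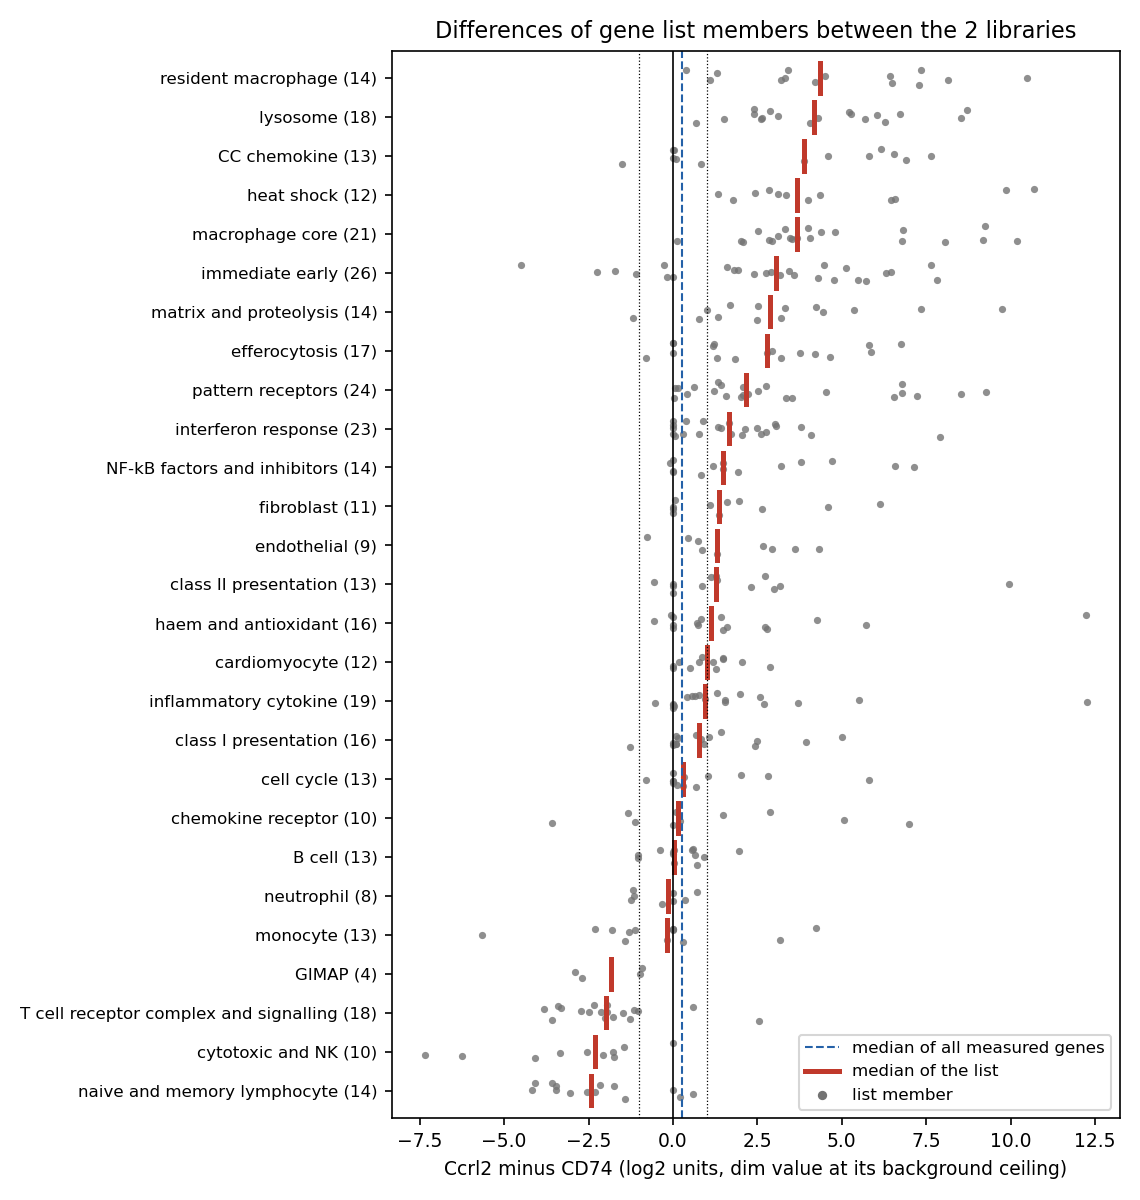
Difference between Ccrl2 and CD74 (x axis, log2 units, dimmer value at its background ceiling) for each measured member of the gene lists shown (rows, number of measured members in parentheses); points are genes, red bars the list medians, dotted lines 2-fold and the dashed line the median of 0.26 over all measured genes. Among the lists shown, resident macrophage genes have the highest median, 4.36, and naive and memory lymphocyte genes the lowest, -2.44.

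Among secreted ligands, a few cytokine and chemokine genes differed very widely and others hardly at all. Of 22 inflammatory cytokine and growth factor genes with a probe set, 19 were measured, 9 were higher, 0 lower and 10 not called, with a median of 0.96. Tnf, which activates endothelium and leukocytes, had 18.78 in Ccrl2 and 5.55, under the ceiling, in CD74, at least 12.25 log2 units apart. Il1a, an alarmin cytokine, had 12.03 and 5.82, and Il6 11.18 and 7.47. In contrast Il1b, the inflammasome cytokine, had 17.11 in Ccrl2 and 16.33 in CD74, a bright signal in both, with 18.34 in Trem2 and 12.69 in CD163.

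Of 16 CC chemokine genes, 13 were measured, 7 were higher and 1 lower (median 3.88), against 32.0% higher and 7.8% lower over all measured genes. After quantile normalization 7 were higher and 2 lower (median 2.07), and without a filter on low values the median over all 16 was 1.6. Ccl4, an inflammatory chemokine, had 18.46 in Ccrl2 and 10.82 in CD74, and Ccl3, another, was at the top of the scale against 13.76. The monocyte attractant genes Ccl2, Ccl7 and Ccl12 had 13.42, 11.11 and 12.32 in Ccrl2, and none of them passed the ceiling in CD74. The lower gene was Ccl20, a ligand of Ccr6, at 5.44 against 7.18, within the range of background genes in CD74. Ccl5, a chemokine of T and NK cells as well as macrophages, had 11.02 and 10.93. Of 15 CXC and related chemokine genes, 10 were measured, 6 were higher and 0 lower (median 2.05). Next to Cxcl10, Cxcl16, the ligand of Cxcr6, had 16.57 and 7.76, and Cxcl2, a neutrophil attractant, was at the top of the scale against 14.51.

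Chemokine receptors had no common direction. Of 22 with a probe set, 10 were measured, 4 were higher and 3 lower, which became 3 and 5 after quantile normalization. The shares over all measured genes were 32.0% higher and 7.8% lower on the deposited values. The chemerin receptor gene Cmklr1 (11.59 against 6.26) and the fractalkine receptor gene Cx3cr1 (9.39 against 5.13) were higher in Ccrl2, as were Ccrl2 itself and Ccr1. Ccr7, which guides T cells and dendritic cells to lymph nodes, had 14.97 in CD74 against 11.38 in Ccrl2, 11.68 in Trem2 and 9.94 in CD163, so that it was 3.59 log2 units lower in Ccrl2 than in CD74. Ccr2, the receptor of monocytes for Ccl2, was 2.16-fold higher in CD74 (8.60 against 7.49). Cxcr4, the receptor for Cxcl12, was alike at 14.58 and 14.48.

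Regulators of inflammation were higher in Ccrl2 with exceptions. Of 17 NF-kB factor and inhibitor genes with a probe set, 14 were measured, 9 were higher and 0 lower (median 1.47). After quantile normalization 5 were higher and 1 lower (median 0.42). Nfkbiz, an inducible nuclear regulator of NF-kB, had 17.31 and 10.74, Tank, a TRAF-binding adaptor, 14.55 and 7.42, and Nfkbia, the inhibitor that retains NF-kB in the cytoplasm, 18.45 and 14.66. The subunit gene Rel was bright in both, at 17.08 and 15.90, and its order turned after quantile normalization. Tnfaip3, a deubiquitinase that restrains NF-kB, was at the top of the scale in both. Of 25 interferon response genes with a probe set, 23 were measured, all 23 in Ccrl2 and 5 in CD74. Higher were 14 and lower 0, with a median of 1.65. The rule allowed no lower call for members under the CD74 ceiling. After quantile normalization 10 were higher and 0 lower, with a median of 0.89. Ifih1, a sensor of double-stranded RNA, had 15.15 and 7.24. Irf1, an interferon-induced factor, had 12.65 and 8.56, and Rsad2, an antiviral enzyme, 9.59 and 4.75.

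Immediate early genes split between the libraries. All 26 listed were measured, 26 in Ccrl2 by its own ceiling and 23 in CD74, so that this list was well measured on both arrays. Higher in Ccrl2 were 19 and lower 4, with a median of 3.04. Fosb, an AP-1 subunit, had 19.03 in Ccrl2 and 11.20 in CD74, Jun, another, was at the top of the scale against 12.27, and Atf3, a stress-induced factor, 19.75 and 13.29. The 4 lower genes were the phosphatase genes Dusp5 (8.86 against 13.36) and Dusp2 (5.73 against 6.82, within the range of background genes) and the orphan receptor genes Nr4a2 (9.51 against 11.75) and Nr4a3 (11.80 against 13.52). The third member of that receptor family, Nr4a1, went the other way, at 15.57 against 12.39. Dusp1, a phosphatase of MAP kinases, was at the top of the scale in both libraries.

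All 12 heat shock genes with a probe set were higher in Ccrl2, with a median of 3.66. Hspa1a and Hspa1b, nearly identical genes for the inducible chaperone HSP70 whose probes may not tell them apart, had 17.94 and 18.94 in Ccrl2 against 8.07 and 8.24 in CD74. Hsp90aa1, an inducible HSP90, had 19.59 and 13.01, and Hspe1, a mitochondrial chaperonin, had the smallest difference at 8.42 and 7.09.

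Genes of matrix and proteolysis were largely measured in Ccrl2 alone. Of 22 with a probe set, 13 were above the ceiling in Ccrl2 and 4 in CD74, 12 were higher and 1 was lower, with a median of 2.86. Sdc4, a heparan sulphate proteoglycan, had 16.26 and 5.23, at least 849-fold apart, with 13.32 in CD163 and 12.85 in Trem2. Timp2, an inhibitor of matrix metalloproteinases, had 14.54 and 7.21, and Plau, the urokinase plasminogen activator, 11.90 and 5.06. Mmp13, a collagenase, had 10.98 and 4.82, and Fn1, which encodes fibronectin, 11.32 and 7.08. Mmp8, the collagenase of neutrophils, was the lower gene, at 4.78 against 6.84, within the range of background genes in CD74.

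Among antigen presentation genes, several class II and class I chains were bright in both libraries. Of 14 class II genes with a probe set, 13 were measured, 8 were higher and 0 lower, with a median of 1.26. The class II chains H2-Aa, H2-Eb1 and H2-Ab1 had 19.20, 14.38 and 17.15 in Ccrl2 against 16.03, 11.38 and 16.01 in CD74, whereas CD163 had 14.35, 6.79 and 10.31. All 3 were therefore higher in CD74 than in CD163. After quantile normalization the order of H2-Ab1 turned between Ccrl2 and CD74, and the list median was 0. Cd83, an activation marker, differed far more than the class II chains, at 19.35 against 9.41. Of 18 class I genes with a probe set, 16 were measured, 6 were higher, 1 lower and 9 not called, a share of higher genes near the 32.0% over all measured genes. After quantile normalization 2 were higher and 4 lower. H2-K1, a class I heavy chain, had 17.59 and 17.43, and B2m, its light chain, was at the top of the scale in both. Psme1, an interferon-induced proteasome activator, was the lower gene at 11.42 and 12.69, and the endoplasmic reticulum chaperone gene Calr had the largest difference, at 17.12 and 12.11. Of 18 costimulatory and checkpoint genes, 12 were measured, 6 were higher and 1 lower. Cd86, a ligand of CD28 on antigen-presenting cells, had 13.30 and 6.80, and Tigit, an inhibitory receptor of T and NK cells, 5.35 and 7.40, the latter within the range of background genes. The Cd74 gene was not analysed here.

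T cell genes were higher in CD74. Of 24 T cell receptor complex and signalling genes with a probe set, 18 were above the ceiling in CD74 and 5 in Ccrl2. At least 2-fold lower in Ccrl2 were 16 and higher 1, with a median of -1.98 against 0.26 over all measured genes. Members under the Ccrl2 ceiling could not be called higher. Of the 7902 genes behind the 0.26, 4281 were measured in Ccrl2 alone, so the 2 medians are not like for like. Without a filter on low values the median over all 24 was -2.16, values limited by background included. In 8 of the 16 the CD74 value also lay above every background gene. Cd3e, a signalling chain of the receptor complex, had 9.50 in CD74 and 4.56 in Ccrl2, at least 14.2-fold apart, and lay at 4.13 in CD163 and 4.55 in Trem2, under their ceilings. Prkcq, a kinase of T cell receptor signalling, had 9.26 against 4.42, Lat, the adaptor that links the receptor to downstream signalling, 9.07 against 5.32, and Icos, a costimulatory receptor, 8.98 against 5.22. Cd28, another costimulatory receptor, had 8.40 against 5.05. Cd4, a coreceptor of T cells that some macrophages also carry, was measured in both, at 9.35 in CD74 and 7.35 in Ccrl2. The exception was Lcp2, an adaptor that myeloid cells share with T cells, which was 5.82-fold higher in Ccrl2 (9.67 against 7.13). Zap70 was under the ceiling in both libraries, at 5.80 in CD74 and 4.22 in Ccrl2. Fyb, an adaptor of T cells and myeloid cells, was not called (8.26 against 8.84).

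Genes of cytotoxic and NK cells had the largest differences in favour of CD74, but few were measured. Of 25, all with a probe set, 9 lay above the ceiling in CD74 and 1 in Ccrl2. Lower in Ccrl2 were 9 and higher 0, with a median of -2.30. Members under the Ccrl2 ceiling could not be called higher. Without a filter on low values the median over all 25 was -2.05, values limited by background included. In 5 of the 9 the CD74 value lay above every background gene. Gzma was at least 162-fold and Il2rb, the receptor chain for interleukins 2 and 15, at least 75.6-fold higher in CD74. Il2rb had 11.91 in CD74, 4.45 in Ccrl2, 5.33 in CD163 and 7.76 in Trem2. Nkg7, a granule protein gene of cytotoxic cells, had 9.75 against 5.52, Klrb1c, the NK receptor NK1.1, 9.02 against 5.65, and Ctsw, a protease of cytotoxic cells, 8.21 against 4.07. Ifng, which encodes interferon gamma, had 7.73 against 3.96, within the range of background genes in CD74. The killer genes Prf1 and Gzmk and the NK receptor gene Ncr1 did not pass the ceiling in CD74 (6.27, 6.39 and 6.48) nor in Ccrl2 (4.02, 4.21 and 4.37).

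**Figure D3:**
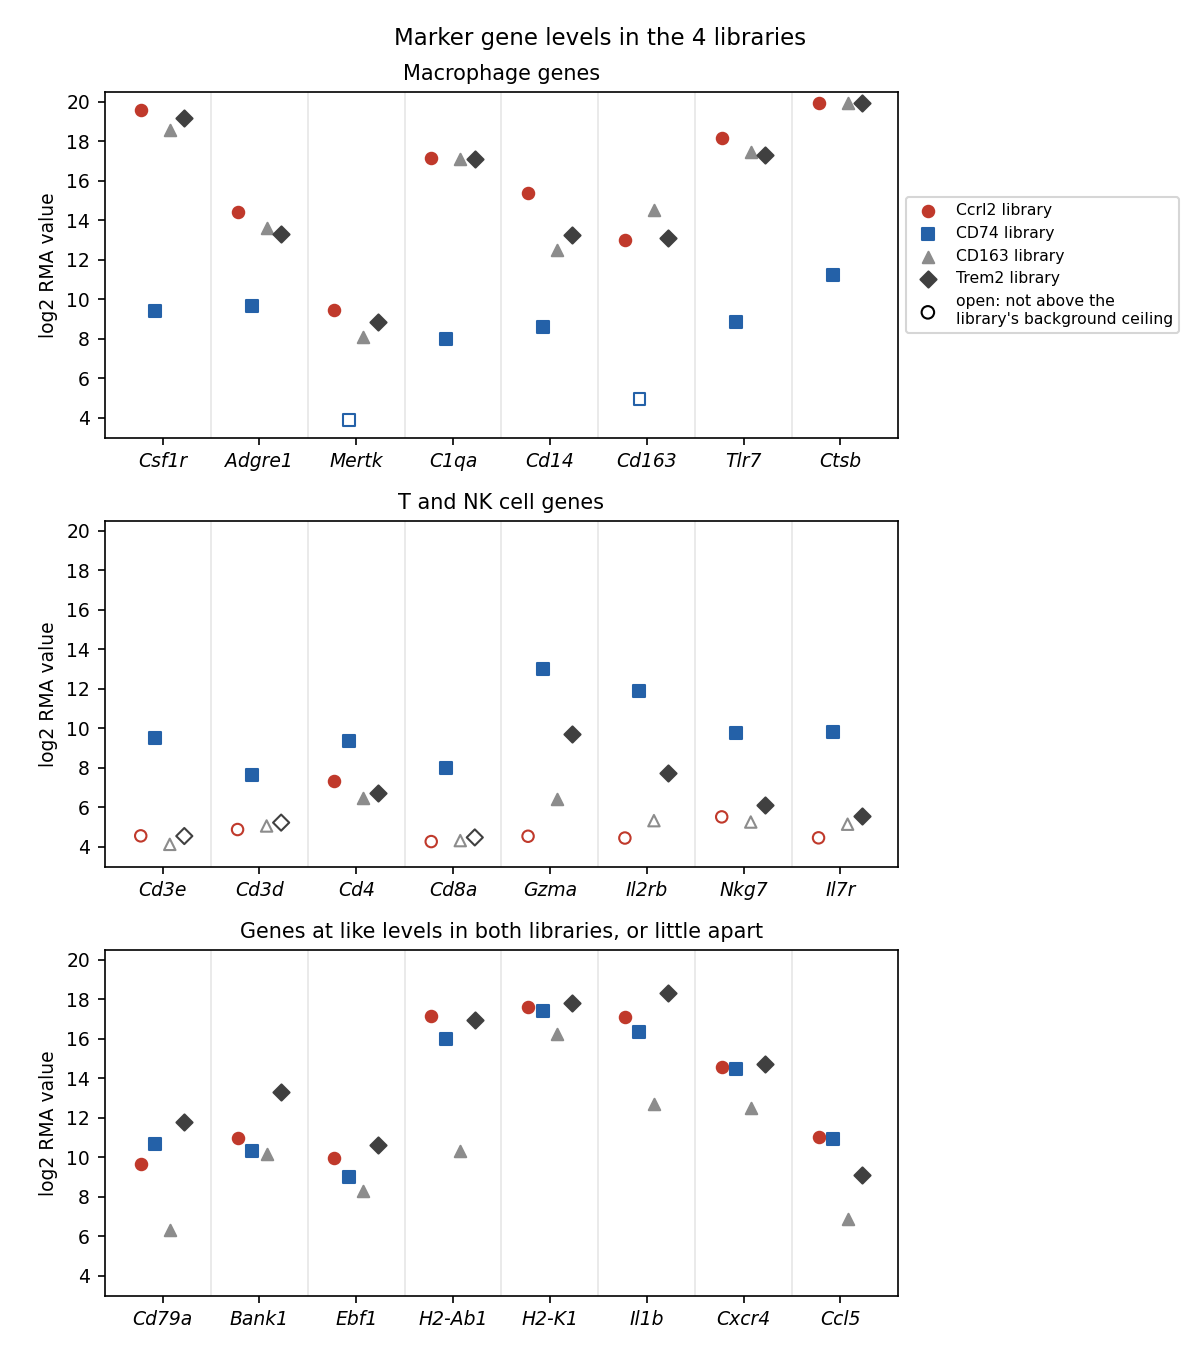
Level (y axis, log2 RMA value) of macrophage genes, T and NK cell genes, and genes little apart, in the Ccrl2, CD74, CD163 and Trem2 libraries, 1 array each. Open symbols lie at or under the library's background ceiling. Among the genes little apart, Cd79a was called lower in Ccrl2 (9.66 against 10.70) and H2-Ab1 higher (17.15 against 16.01). CD74 is the lowest library for all 8 macrophage genes and the highest for all 8 T and NK cell genes, while Cxcr4 (14.58 and 14.48), H2-K1 (17.59 and 17.43) and Ccl5 (11.02 and 10.93) are alike in Ccrl2 and CD74 on the deposited values but at -2.09, -1.82 and -1.80 (Ccrl2 minus CD74) after quantile normalization; the genes were picked with their values known.

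Genes of naive and memory lymphocytes were also higher in CD74, and most were measured in both libraries. Of 16 with a probe set, 14 were measured, 13 in CD74 and 12 in Ccrl2. At least 2-fold lower in Ccrl2 were 11 and higher 0, with a median of -2.44, and in all 11 the CD74 value lay above every background gene. Lef1, a factor of naive T cells, had 9.76 in CD74 and 4.62 in Ccrl2, at least 17.0-fold apart. Cd69, an early activation and retention marker, had 13.52 against 10.46, Dgka, a kinase that limits diacylglycerol signalling in T cells, 12.16 against 8.71, and Ikzf3, a lymphoid factor, 9.22 against 5.77. S1pr1, the receptor by which lymphocytes leave tissues, was alike at 8.10 and 8.30. Il7r was at least 18.0-fold higher in CD74.

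Cytokine receptor and JAK-STAT genes had no common direction. Of 25 with a probe set, 18 were measured, 8 were higher and 4 lower, which became 5 and 7 after quantile normalization. The lower genes were Il2rb, Il7r, Il18rap, a chain of the interleukin 18 receptor (7.76 in CD74, within the range of background genes, against 4.0), and Ifngr1, the ligand-binding chain of the interferon gamma receptor (12.18 against 10.44). Among the higher genes were Il10ra, the interleukin 10 receptor (13.89 in Ccrl2 against 8.58), Tyk2, a kinase of interferon and interleukin receptors (9.71 against 6.01), and Socs3, a feedback inhibitor (9.42 against 6.66). Jak1, Stat4 and Stat5a were less than 2-fold apart (8.03 and 8.18, 7.84 and 8.17, 8.08 and 7.70). Among 8 GIMAP genes, GTPases of lymphocytes, 4 were measured. Gimap4 had 10.23 in CD74 and 7.34 in Ccrl2, and Gimap6 10.46 and 7.78, while Gimap7 (6.60 and 4.39) and Gimap8 (7.02 and 6.03) did not reach 2-fold by the call rule. Of 12 genes of type 2 and type 3 innate lymphoid cells with a probe set, 3 were measured. Ahr, a ligand-activated factor, had 8.62 in CD74 against 6.13, Rora, a nuclear receptor, 6.98, within the range of background genes, against 5.60, and Zbtb16, a factor of innate-like lymphocytes, was higher in Ccrl2 at 10.39 against 6.57. The type 2 cytokine genes Il5 and Il13 did not pass the ceiling in CD74, at 4.86 and 5.38.

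B cell genes did not follow the T cell genes. Of 15 with a probe set, 13 were measured, 12 in Ccrl2 and 10 in CD74, 1 was higher, 2 were lower and 10 were not called, with a median of 0.04. Cd79a, a chain of the B cell receptor complex, had 10.70 in CD74 and 9.66 in Ccrl2, its partner Cd79b 6.65 in both, and Pax5, the B cell identity factor, 6.84 and 6.88. Bank1, a B cell adaptor, had 10.30 and 11.00. In the Trem2 library Cd79a, Cd79b and Pax5 lay higher than in either, at 11.80, 10.26 and 8.17. Cd37, a tetraspanin of B cells and other leukocytes, was the gene called higher in Ccrl2, at 10.64 against 8.68. Cd79b and Pax5 lay within the range of background genes in both libraries, and after quantile normalization Cd79a had a difference of -2.83.

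More monocyte genes were called toward CD74 than toward Ccrl2, and neutrophil genes were low in both libraries. Of 19 monocyte genes, 13 were measured, 2 were higher and 6 lower, with a median of -0.18. Over all measured genes 32.0% were higher and 7.8% lower. In 5 of the 6 the CD74 value lay above every background gene, and after quantile normalization the counts were again 2 and 6. Ly6c2, the surface antigen of classical monocytes that memory T cells and NK cells also carry, had 12.55 in CD74, 6.90 in Ccrl2, 5.99 in CD163 and 10.98 in Trem2, 50.2-fold higher in CD74 than in Ccrl2. Its near-identical neighbour Ly6c1, whose probes may cross-react, had 11.95 and 10.66. Plac8 (9.65 against 8.22), Itga4, an integrin chain (12.72 against 10.91), and Itgal, a chain of the leukocyte integrin LFA-1 (7.98 against 5.65), were also higher in CD74, Itgal from within the range of background genes. The 2 genes higher in Ccrl2 were Fn1 and Nr4a1, which other cells express as well. Of 14 neutrophil genes with a probe set, 8 were measured, 0 were higher and 3 lower, all 3 within the range of background genes. S100a9, a calprotectin chain, had 7.19 in Ccrl2 and 6.84 in CD74, beside 12.55 in Trem2, and Retnlg, a resistin-like gene of neutrophils, 6.83 and 7.15 beside 16.81.

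Few dendritic cell and mast cell genes were measured. Of 15 dendritic cell genes, 6 were measured, 2 were higher and 1 lower, a share of higher genes near the 32.0% over all measured genes. Flt3 and Zbtb46, defining factors of dendritic cells, lay under the ceiling in both libraries, at 4.39 and 3.82 in Ccrl2 and 4.85 and 4.14 in CD74. Tcf4, which plasmacytoid dendritic cells and other cells express, had 13.42 in Ccrl2 and 8.90 in CD74. Of 11 mast cell and basophil genes, 3 were measured, with Hdc, the histamine-forming enzyme, higher in Ccrl2 (8.89 against 7.48) and the protease gene Cpa3 higher in CD74 (7.64 against 6.36, within the range of background genes).

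Some markers of non-leukocytes were higher in Ccrl2, and few of them were measured in CD74. Of 13 fibroblast genes with a probe set, 11 were measured in Ccrl2 and 3 in CD74, 7 were higher and 0 lower (median 1.37), all of them at 7.87 or under in CD74, within the range of background genes. Dcn, which encodes the matrix proteoglycan decorin, had 12.65 in Ccrl2 and 4.71 in CD74, beside 12.67 in Trem2 and 7.01 in CD163, whereas Col1a1, a chain of collagen I, had 7.92 and 7.87 in Ccrl2 and CD74. Of 13 endothelial genes with a probe set, 9 were measured in Ccrl2 and 4 in CD74, 5 were higher and 0 lower (median 1.31). Cdh5, the cadherin of endothelial junctions, had 10.86 against 6.36, and Fabp4, a fatty acid carrier of capillary endothelium, adipocytes and macrophages, 14.88 against 11.27. Of 14 cardiomyocyte genes, 12 were measured in Ccrl2 and 5 in CD74, 6 were higher and 0 lower (median 1.01). After quantile normalization 0 cardiomyocyte genes were higher and 1 was lower, and the endothelial and fibroblast lists each had 4 higher and 1 lower. Myl2, a myosin light chain of the ventricle, had 12.50 and 9.64, and Mb, myoglobin, 11.90 and 9.87. Mural, erythrocyte and platelet genes gave 0 calls, with 3 of 10 mural genes and 2 of 5 erythrocyte and platelet genes measured. These marker lists moved with the macrophage lists and with the larger number of genes measured in Ccrl2, and the part of carried-over cells or RNA in the matrix and growth factor differences was not tested. Their members under the CD74 ceiling could not be called lower.

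Ribosomal protein genes leaned toward CD74. Of 63, 59 were measured, 57 in each library, 22 were lower in Ccrl2, 5 higher and 32 not called, with a median of -0.55. The genes Rpl17, Rps18 and Rps23 had 19.69, 15.15 and 17.24 in CD74 against 17.12, 13.05 and 15.23 in Ccrl2, and Rps9 went the other way at 8.02 against 10.63. Ribosomal protein genes have many processed pseudogenes, so that probes may share signal. After quantile normalization 51 were lower and 1 higher. On the deposited scale this list therefore ran against the median of 0.26 over all measured genes. Of 19 oxidative phosphorylation genes with a probe set, 18 were measured, 8 were higher and 0 lower, with the largest difference for Cox6c, a subunit of cytochrome oxidase (9.34 against 6.72). After quantile normalization 1 was higher and 3 were lower, so that the balance of this list turned. Of 17 glycolysis and hypoxia genes, 16 were measured, 6 were higher and 1 lower. Pfkfb3, a regulator of glycolytic flux, had 10.69 against 5.68, and Ldha, lactate dehydrogenase A, was lower at 9.06 against 10.18. Of 17 cell cycle genes, 13 were measured, 4 were higher and 0 lower. Mki67, a proliferation marker, had 9.34 in Ccrl2 and 6.14 in CD74. The shares of higher genes in the cell cycle and glycolysis lists were near the 32.0% over all measured genes.

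Outside the lists, 7 further genes were among the largest differences in favour of CD74. Dusp10, a phosphatase of JNK and p38, had 14.14 in CD74, 8.86 in Ccrl2, 6.36 in CD163 and 9.69 in Trem2, 38.9-fold higher in CD74 than in Ccrl2. Emb, which encodes the cell adhesion protein embigin, had 12.26 against 7.89, Bin2, a membrane-shaping protein of leukocytes, 13.87 against 9.67, and Vps37b, a subunit of the ESCRT sorting machinery, 10.34 against 6.02. Rnf125, a ubiquitin ligase, had 10.94 against 6.75, Gramd3 12.21 against 8.36, and Serpinb9, an inhibitor of granzyme B, 9.69 against 5.99. All 7 had a CD74 value above every background gene and above the other 3 libraries. Upward, Pmp22, a membrane protein gene best known from myelin, had 15.89 in Ccrl2 and 5.44, under the ceiling, in CD74, with 16.95 in CD163 and 13.51 in Trem2.

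**Figure D4:**
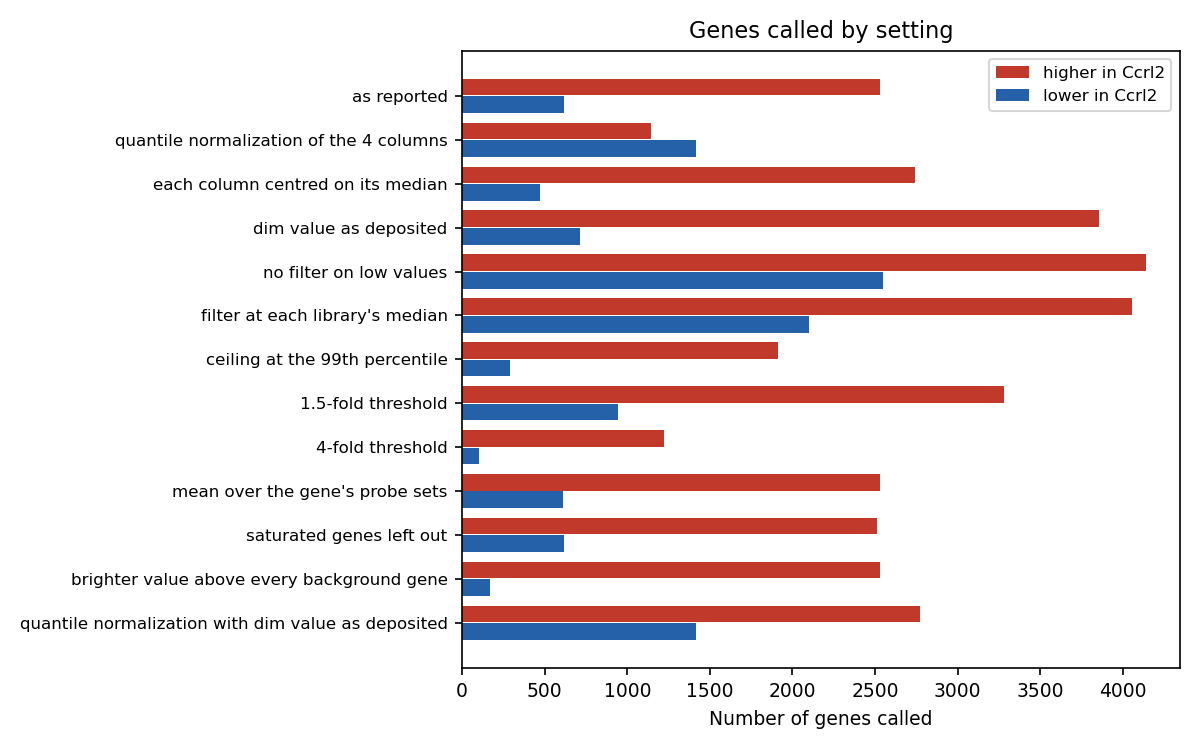
Number of genes (x axis) called higher (red) and lower (blue) in Ccrl2 against CD74 under the reported setting and 12 alternatives (rows); bars start at 0. Quantile normalization gives 1143 higher and 1417 lower genes against 2529 and 616 as reported. Requiring a brighter value above every background gene reduces the 616 to 166 and leaves the 2529, which the call rule fixes in advance.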

How the data were processed

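Total RNA of each sorted population was hybridised to 1 Clariom S mouse array, per the labels' protocols. The deposited values are log2 values per probe set that the authors made by robust multichip average (RMA) background correction, normalization and summary, per the labels' protocols. GeneSpring appears in those protocols and Affymetrix Expression Console in the submitters' processing notes. Which RMA settings and probe build were used is not given in the sources used here. Deposited columns do not share a distribution (95th percentiles 10.09 in Ccrl2 and 8.45 in CD74), which carries into every difference.

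The platform annotation gave 1 symbol to 19572 probe sets. These stood for 19505 genes, and 55 genes with several probe sets were represented by the one brightest on average. Ceilings, calls and list medians were computed in Python 3.11.15 with numpy 2.4.6 and pandas 2.3.3, and the calling rule was tested on simulated data. The simulated libraries shared a common distribution, and changes were planted only in genes well above background. That simulation therefore did not cover the differing spreads of the 2 arrays or calls near background. No test was run, since each population is 1 array. In the 39 lists were 685 genes, 636 with a probe set and 485 measured. The comparison, lists and rules were chosen with earlier results of these data known. Named were the 4 markers, the sort markers, the 15 largest called differences each way, and in each list the 6 largest each way, members against the list's direction and the 4 most alike; Adgre1, Zap70, Gimap7, Prf1, Gzmk, Ncr1, Il5, Il13, Flt3, Zbtb46, Bank1 and the ribosomal protein genes were named after their values were seen. Predicted genes, small RNA genes, receptor segments, histones and sex-linked genes were left out of naming. Alternatives covered scaling, background treatment, thresholds, probe sets and saturation.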

Additional observations from a re-analysis of the deposited data

How the results depend on the processing

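With the 4 columns quantile normalized, 1143 genes were higher and 1417 lower in Ccrl2, and 1417 were lower also with the dimmer value as deposited. The dimmer value as deposited gave 3858 higher genes, no filter on low values 4138 higher and 2548 lower, and keeping genes over the median of their library 4053 and 2101. A ceiling at the 99th percentile left 288 lower genes, a 1.5-fold threshold gave 945 lower, and a 4-fold threshold 1221 higher and 102 lower. A brighter value above every background gene left 166 lower. That setting and the quantile setting with dimmer values as deposited were chosen after seeing the data.

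List medians crossed 1 log2 unit as follows. After quantile normalization they were 0.71 for lipid-associated macrophage, 0.14 for haem and antioxidant, 0.42 for NF-kB, 0.89 for interferon response, 0.0 for class II, 0.58 for costimulation, 0.6 for endothelial, 0.32 for fibroblast and 0.0 for cardiomyocyte genes. Columns centred on their medians gave 1.09 for inflammatory cytokine genes. With the dimmer value as deposited, inflammatory cytokine genes had 1.91, class I 1.39, dendritic cell 1.06, mural 1.35, oxidative phosphorylation 1.78 and cell cycle genes 1.12. With no filter, inflammatory cytokine genes had 1.45, class I 1.14, oxidative phosphorylation 1.59, CXC chemokine 0.69, costimulation 0.53 and innate lymphoid genes -0.76. The mean over members was 1.89 for inflammatory cytokine, 1.07 for chemokine receptor, 1.12 for class I and 0.01 for innate lymphoid genes, the last reversed from a median of -1.31.

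Of 308 named genes, 15 called ones changed sign after quantile normalization: Aldoa -0.03, Bach1 -0.12, Cfp -0.4, Cox7c -0.05, Cr1l -0.15, Gapdh -0.3, H2-Ab1 -0.99, H2-DMa -0.11, H2-DMb1 -0.62, Itgav -0.24, Pln -0.17, Rel -1.03, Tapbp -0.33, Tgfb1 -0.56 and Tnnt2 -0.48. A further 36 fell under 2-fold and 27 passed it, among the latter Cxcr4, Ccl5, H2-K1, Clec4d and Clec4e, while 230 kept their side. The cause was not tested. No paired analysis was possible because each population is 1 array. No replicate could be left out, and differences of CD74 values under 6.53 or Ccrl2 values under 5.67 are limited by background.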
